A study of Homo sapiens with 12 samples.

Results

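The 34 genes described here act in homologous recombination and in the Fanconi anaemia pathway. They were taken by name, as the rows whose gene identifier maps to a listed symbol, and make up 34 of the 57820 gene identifiers counted. All 34 were found, and all are among the 15750 genes that passed the filter on low counts. In every library each of them had between 237 and 9933 counts. They fall into 6 genes of end resection (MRE11, RAD50, NBN, RBBP8, EXO1, BLM), 5 genes of the BRCA and mediator group (BRCA1, BARD1, PALB2, BRCA2, RAD52), 5 recombination paralogs (RAD51B, RAD51C, RAD51D, XRCC2, XRCC3) and the RAD54 translocases RAD54L and RAD54B. The others are 8 genes of the Fanconi anaemia core complex and its anchor (FANCA, FANCB, FANCC, FANCE, FANCF, FANCG, FANCL, FANCM), 4 genes of the FANCD2 and FANCI pair and of the steps after it (FANCD2, FANCI, BRIP1, SLX4), and 4 checkpoint kinases (ATM, ATR, CHEK1, CHEK2).

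Homologous recombination repairs a broken chromosome by copying the intact sister. Nucleases trim the broken ends to single strands, the BRCA proteins and the recombination paralogs help to build a protein filament on them, and translocases and helicases drive and resolve the exchange. The Fanconi anaemia pathway deals with crosslinks between the strands: the core complex attaches ubiquitin to FANCD2 and FANCI, and nuclease scaffolds and the recombination machinery follow. ATM and ATR sense the damage and signal through CHEK2 and CHEK1. Many of these genes are transcribed most in dividing cells, so their RNA is commonly read beside that of cell cycle genes.

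The study measured messenger RNA in G401, a human malignant rhabdoid tumour line, which the labels give as SMARCB1(-/-) in all groups. SMARCB1 is a core subunit of SWI/SNF chromatin remodelling complexes. Doxycycline induced either GFP, the control protein, or SMARCB1, and cells then had 24 h of the solvent DMSO or of dBRD9-A, a compound that degrades BRD9, a subunit of a non-canonical SWI/SNF complex. The 4 groups of 3 libraries are GFP cells in DMSO, SMARCB1 cells in DMSO, and each of these cell states with dBRD9-A. All come from 1 cell line, every group received doxycycline, SMARCB1 was supplied from an inducible construct, and the labels give neither the time on doxycycline nor whether replicates were separate cultures. P-values therefore measure the spread between these libraries, which may be technical.

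Libraries held 34.97 to 58.54 megacounts on genes, a megacount being 1000000 counts. SMARCB1 had 0 to 2 counts in the 6 GFP libraries and 53033 to 110893 in the 6 SMARCB1 libraries, as the labels say. Among the SMARCB1 cells its RNA was lower with dBRD9-A, at 1307 ± 27.0 CPM (counts per megacount) against 1875 ± 59.4 CPM in DMSO (SD, n = 3), a log2 change of -0.52 (SE 0.033, adjusted p 4.95e-08). The SMARCB1 cells with and without dBRD9-A thus differ in SMARCB1 RNA as well as in the compound, and the part of this in the results was not tested. BRD9 RNA, which a degrader of the protein need not change, stood in GFP cells at 38.3 ± 1.20 (DMSO) and 41.1 ± 0.849 CPM (dBRD9-A) and at 46.9 ± 2.04 and 47.5 ± 2.75 CPM in the SMARCB1 groups (SD, n = 3). It was thus higher in SMARCB1 cells, by 0.29 on the log2 scale in DMSO (adjusted p 1.64e-05), and was not called for dBRD9-A in either cell state (adjusted p 0.146 and 0.921). Of the markers of other cell types, PTPRC, CD3E and KDR were at 0 in every library, while VWF and CDH5 reached 50 and 10 counts. The 3 endothelial markers found summed to at most 0.123 CPM in GFP and 1.069 CPM in SMARCB1 libraries. The 1 tested was called higher with SMARCB1 (log2 3.96 in DMSO, 5.76 with dBRD9-A). The 5 epithelial markers summed to 0.38 to 1.277 CPM. Of the 2 tested, 1 was called higher and 1 lower in each SMARCB1 comparison. The 5 fibroblast markers summed to 1186 to 1215 CPM in the GFP libraries in DMSO and 894 to 913 CPM in those with dBRD9-A, and to 906 to 918 CPM and 718 to 797 CPM in SMARCB1 cells, with DCN and LUM at 0 or 1 counts throughout. The 3 that could be tested (COL1A1, COL1A2 and PDGFRA) were each called lower with dBRD9-A in both cell states on TMM scaling, while spike-in scaling called 1 lower and 1 higher in GFP cells and all 3 lower in SMARCB1 cells. The 5 leukocyte markers summed to 165 to 199.6 CPM in GFP libraries and 57.3 to 66.5 CPM in SMARCB1 libraries, nearly all of it CD68, and the part of these differences in the results was not tested. VIM, which rhabdoid cells express, averaged 1268 to 2310 CPM over the groups. Added synthetic spike-in RNAs took 0.9634% to 1.302% of counts, with 1.2649% to 1.302% in GFP cells in DMSO and 0.9634% to 1.0604% in GFP cells with dBRD9-A. Values below use TMM scaling (a trimmed mean of gene ratios), which sets the typical gene to no change. Scaling on the spike-ins instead shifted the median of all genes by 0.17 (log2) for SMARCB1 in DMSO, by -0.33 for SMARCB1 with dBRD9-A, by 0.36 for dBRD9-A in GFP cells and by -0.14 for dBRD9-A in SMARCB1 cells. How the spike-ins were added is not given in the labels, so directions are given relative to the typical gene and spike-in values stand beside them.

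Before the values, stretches of promoter show what some of these genes share, and do not share, in sequence. Windows from 250 bases before to 50 after the start (RefSeq, GRCh38.p14) were found for 31 of the 34 genes, and NBN, RAD54B and FANCI had no entry. The submitters' processing notes name an earlier build (hg19) for the counts' files, so these positions serve only to place the stretches. E2F-type letters (TTTCCCGC, TTTCGCGC, TTTGCCGC or TTTGGCGC, on either strand) occurred in 5 of the 31 windows, or 16.1%, against 4.44% of 15842 windows of protein-coding genes and 3.33% of all 27305 windows. E2F factors are transcription regulators of the entry into S phase. All 6 matches are shown here as 30-base stretches in the direction of the gene, 5′ to 3′. The 8 E2F-type letters, or their reverse complement, are in capitals. The stretches are printed because these genes went different ways with SMARCB1 on TMM scaling.
EXO1, chr1:241848197-241848226, plus strand: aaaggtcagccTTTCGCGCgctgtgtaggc
XRCC2, chr7:152676102-152676131, minus strand: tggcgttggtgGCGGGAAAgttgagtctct
FANCA, chr16:89816801-89816830, minus strand: actacaccgcgGCGGCAAAgccaaacgcaa
FANCC upstream match, chr9:95317863-95317892, minus strand: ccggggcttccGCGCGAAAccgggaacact
FANCC match nearer the start, chr9:95317737-95317766, minus strand: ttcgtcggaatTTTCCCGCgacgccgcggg
FANCD2, chr3:10026424-10026453, plus strand: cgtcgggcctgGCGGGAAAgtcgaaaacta

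The CHR letters TTTGAA, an element of genes of the later cell cycle, were found in 3 of the 31 windows (9.68%), in FANCC, BRIP1 and ATM, against 12.1% of windows of protein-coding genes. CCAAT letters, which the factor NF-Y binds, were in 12 of 31 (38.7%), against 36.4%. BRIP1 and CHEK2 each held 3 CCAAT matches, all in the reverse orientation (ATTGG), and are printed for the 150 bases before the start since BRIP1 RNA was higher and CHEK2 RNA lower in SMARCB1 cells. Capitals mark ATTGG, and the third CHEK2 match lies upstream of the stretch shown. Letters in a window are a description and not a measured binding site.
BRIP1, chr17:61863529-61863678, minus strand: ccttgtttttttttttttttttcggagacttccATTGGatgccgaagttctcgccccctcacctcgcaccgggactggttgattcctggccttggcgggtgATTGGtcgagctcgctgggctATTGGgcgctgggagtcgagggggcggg
CHEK2, chr22:28741821-28741970, minus strand: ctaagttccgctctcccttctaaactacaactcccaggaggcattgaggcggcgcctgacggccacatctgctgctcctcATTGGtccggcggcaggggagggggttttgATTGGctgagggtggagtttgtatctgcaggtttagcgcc

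On TMM scaling the pathway did not move as a block in SMARCB1 cells. In DMSO, 22 of the 34 genes changed against GFP cells, 7 upward and 15 downward, beside 65.0% of all 15750 genes tested (33.5% upward, 31.6% downward). The members' share of 64.7% is thus near that of genes in general. In bulk RNA, fewer cells in a phase of the cycle and less RNA per cell cannot be told apart. With dBRD9-A present in both cell states, 23 changed, 11 upward and 12 downward, beside 63.3% of all genes (33.0% and 30.4%). The median log2 change of the 34 was -0.054 in DMSO and -0.0082 with dBRD9-A, beside -0.0047 and 0.0085 over all genes. Calls are from edgeR's quasi-likelihood test, with Benjamini-Hochberg adjusted p under 0.05 over all genes tested and no limit on fold. With spike-in scaling 14 genes were higher and 6 lower in DMSO, beside 59.8% of all genes called (43.4% higher, 16.4% lower). With dBRD9-A 2 were higher and 28 lower on that scaling, beside 71.0% (13.5% and 57.4%).

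The SMARCB1 comparisons in DMSO and with dBRD9-A use separate libraries, and they gave like values. EXO1, BLM, BARD1, RAD54B, FANCB, BRIP1 and SLX4 were higher in both on TMM scaling, which is 7 of 34 beside 28.9% of all genes. MRE11, RAD50, RBBP8, PALB2, RAD51B, RAD51D, XRCC2, XRCC3, FANCC, FANCF, FANCL and CHEK2 were lower in both on that scaling, 12 of 34 beside 26.2%. On TMM scaling no gene was called in opposite directions, and 8 were called in neither: NBN, BRCA2, RAD52, RAD51C, RAD54L, FANCD2, ATM and CHEK1. On spike-in scaling all 8 were called lower with dBRD9-A, where 57.4% of all genes were. NBN, RAD51C, RAD54L and FANCD2 were called higher in DMSO on that scaling, beside 43.4% of all genes. Shares of all genes called in neither comparison or in opposite directions were not computed. As a description, log2 changes of the 34 genes in DMSO and with dBRD9-A had a Pearson r of 0.96 and a Spearman rho of 0.969, and r over all genes was 0.949. On both scalings and in both comparisons, BARD1 and BRIP1 were higher, and RBBP8, PALB2, RAD51B, RAD51D, FANCL and CHEK2 were lower. The share of all genes called alike on both scalings was not computed, so whether the members differ from it cannot be told.

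**Figure D1:**
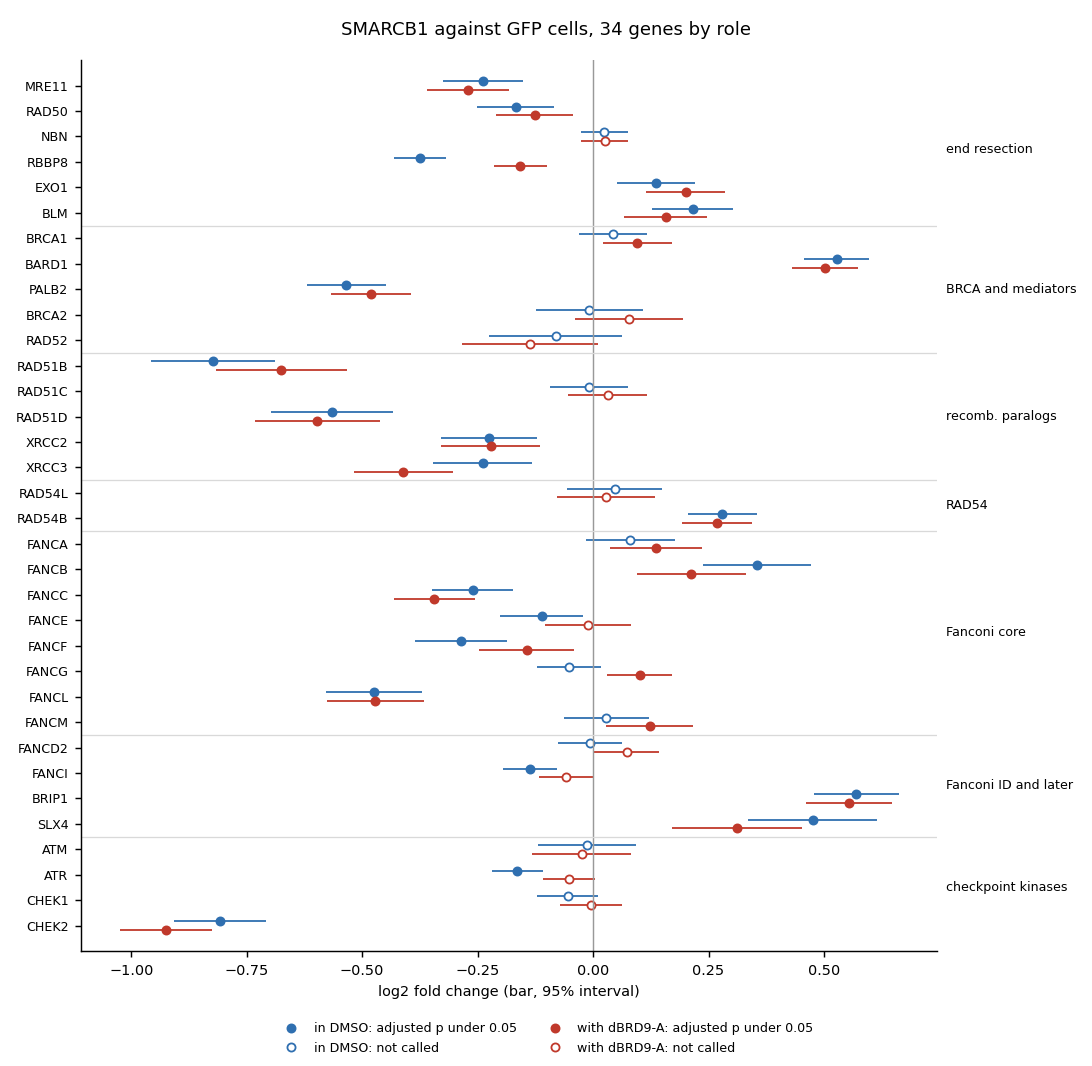
Log2 fold change of SMARCB1 against GFP cells for the 34 genes by role, in DMSO (blue) and with dBRD9-A (red), on TMM scaling. Bars are 95% intervals, and filled points have an adjusted p under 0.05. BRIP1, BARD1 and SLX4 lie farthest to the right and RAD51B and CHEK2 farthest to the left in DMSO. On spike-in scaling SLX4 with dBRD9-A lies at -0.018.

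Around BRCA1 the partners parted. BRCA1, the ubiquitin ligase and tumour suppressor that channels breaks into recombination, had 92.1, 87.2 and 83.2 CPM in the GFP libraries in DMSO and 88.4, 89.6 and 92.4 in the SMARCB1 libraries in DMSO. Its log2 change was 0.043 (adjusted p 0.293), with a 95% interval of -0.030 to 0.12, and the groups overlap. BARD1, the obligate partner of BRCA1 in the ligase, stood at 43.0, 44.8 and 45.3 CPM in GFP cells and at 62.5, 65.3 and 64.1 CPM in SMARCB1 cells. Every SMARCB1 library was above every GFP library, and the log2 change was 0.53 (SE 0.033, adjusted p 1.79e-10), a 1.44-fold rise. The same step appeared with dBRD9-A, from 44.0, 45.1 and 44.6 to 63.4, 61.2 and 64.7 CPM, a log2 change of 0.50 (SE 0.034, adjusted p 5.29e-10). Spike-in values for BARD1 were 0.70 in DMSO and 0.17 with dBRD9-A. With dBRD9-A, BRCA1 itself went from 84.1, 87.8 and 84.4 to 91.5, 89.9 and 92.6 CPM. That small rise, 0.096 (SE 0.035, adjusted p 0.0258), lost its call when either of replicates 1 and 3 of GFP cells or of SMARCB1 cells with dBRD9-A was left out (adjusted p 0.0639 to 0.111), and on spike-in scaling it read -0.23.

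PALB2, which bridges BRCA1 and BRCA2, went the other way from BARD1. It had 38.6, 38.9 and 38.7 CPM in GFP cells in DMSO, a narrow band, and 25.7, 27.9 and 26.6 CPM in SMARCB1 cells, all lower. The log2 change was -0.53 (SE 0.040, adjusted p 2.29e-09), and with dBRD9-A it was -0.48 (SE 0.041, adjusted p 1.37e-08). BRCA2, a mediator that acts on single strands, had 59.1, 59.9 and 53.8 CPM against 51.3, 57.4 and 62.3 CPM. Here the SMARCB1 libraries spanned the whole GFP range, and the log2 change was -0.0087 (adjusted p 0.902), with an interval of -0.12 to 0.11. With dBRD9-A, BRCA2 had 60.3, 59.4 and 58.1 CPM in GFP cells and 60.5, 63.9 and 63.1 CPM in SMARCB1 cells, which do not overlap but did not pass the test (log2 0.077, adjusted p 0.239). RAD52, a strand annealing protein, had group means of 8.49 to 9.37 CPM and was called in no comparison on TMM scaling. Spike-in scaling called it lower with SMARCB1 when dBRD9-A was present (log2 -0.47) and higher with dBRD9-A in GFP cells (log2 0.42). That scaling also called a lower response to dBRD9-A in SMARCB1 than in GFP cells (log2 -0.56).

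**Figure D2:**
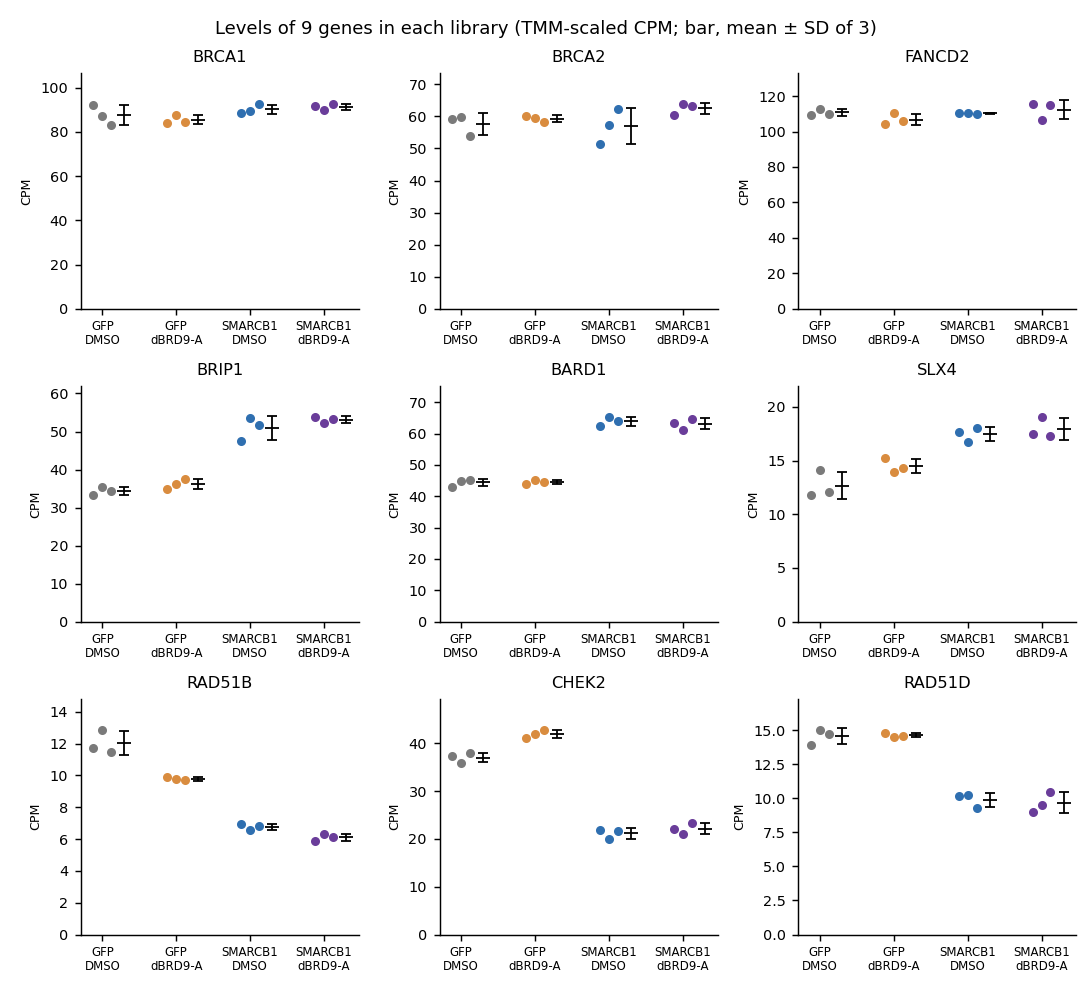
Levels of 9 genes in CPM (vertical axis, TMM-scaled) in each of the 12 libraries, by group, with mean and SD beside the points. BRCA1, BRCA2 and FANCD2 lie at like heights in the DMSO groups, the SMARCB1 libraries are higher for BRIP1, BARD1 and SLX4, and they are lower for RAD51B, CHEK2 and RAD51D. On spike-in scaling the SLX4 difference with dBRD9-A is -0.018 (log2).

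Of the 5 recombination paralogs, which help build and hold the protein filament on single strands, 4 fell with SMARCB1 in DMSO and the same 4 fell with dBRD9-A, on TMM scaling. Of all genes, 31.6% were called lower in DMSO, 30.4% with dBRD9-A and 26.2% in both. On spike-in scaling 2 of the 5 were called lower in DMSO and all 5 with dBRD9-A, beside 16.4% and 57.4% of all genes. RAD51B showed the lowest log2 change of the 34 genes in DMSO, with 11.7, 12.9 and 11.5 CPM in GFP cells and 6.94, 6.55 and 6.83 CPM in SMARCB1 cells. All SMARCB1 libraries lay below all GFP libraries, a log2 change of -0.82 (SE 0.063, adjusted p 2.84e-09), or 0.56 times the GFP level. RAD51D went from 13.9, 15.0 and 14.7 to 10.1, 10.2 and 9.27 CPM, again without overlap, a log2 change of -0.56 (SE 0.062, adjusted p 3.46e-07). With dBRD9-A the libraries read 9.89, 9.74 and 9.69 CPM in GFP against 5.89, 6.33 and 6.12 in SMARCB1 cells for RAD51B, a log2 change of -0.67 (SE 0.067, adjusted p 9.4e-08). For RAD51D they read 14.8, 14.5 and 14.6 against 8.998, 9.52 and 10.5 CPM, a log2 change of -0.60 (SE 0.064, adjusted p 2.54e-07). RAD51D shares exons on its own strand with the read-through gene RAD51L3-RFFL in GENCODE 29, so how its reads were divided is uncertain. XRCC2 fell by 0.22 (adjusted p 0.000628) and XRCC3 by 0.24 (adjusted p 0.0005) on the log2 scale in DMSO. RAD51C, which sits in complexes with both RAD51B and XRCC3, had a log2 change of -0.0083 (interval -0.092 to 0.076). On spike-in scaling the DMSO values were -0.65 for RAD51B, -0.39 for RAD51D, -0.058 for XRCC2, -0.070 for XRCC3 and 0.16 for RAD51C, and only RAD51B and RAD51D kept a call as lower.

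The RAD54 translocases, which open the intact chromosome to the filament, differed from each other. RAD54B had 42.0 ± 0.746 CPM in GFP cells and 50.9 ± 0.763 CPM in SMARCB1 cells in DMSO (SD, n = 3), a rise of 0.28 (adjusted p 1.94e-06) in log2, and of 0.27 with dBRD9-A, where spike-in scaling gave -0.057. RAD54L had 20.0 ± 0.399 and 20.6 ± 0.527 CPM, a log2 change of 0.046 (adjusted p 0.419). RAD54B shares exons with FSBP, a gene nested in it on the same strand.

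Of the 6 resection genes, 3 fell and 2 rose in each SMARCB1 comparison on TMM scaling, and NBN was not called. Over all genes 31.6% fell and 33.5% rose in DMSO, and 30.4% fell and 33.0% rose with dBRD9-A. In the complex that makes the first cut, MRE11, the nuclease, was lower in SMARCB1 cells, at -0.24 (adjusted p 6.26e-05) in DMSO and -0.27 (adjusted p 2.04e-05) with dBRD9-A. RAD50, its ATPase, was lower at -0.17 (adjusted p 0.00119) and -0.13 (adjusted p 0.0101). NBN, the third subunit, was at 0.024 in DMSO with an interval of -0.026 to 0.075 and was not called. RBBP8, known as CtIP, which activates that nuclease, had 93.5, 92.0 and 89.6 CPM in GFP cells and 69.9, 71.7 and 70.5 CPM in SMARCB1 cells in DMSO, a fall without overlap (log2 -0.38, SE 0.027, adjusted p 1.12e-09). Of the later, long-range step, the exonuclease EXO1 rose by 0.14 in DMSO and 0.20 with dBRD9-A on TMM scaling, where the spike-in values were 0.31 and -0.13. The helicase BLM rose by 0.22 and 0.16, with spike-in values of 0.38 and -0.17. With spike-in scaling MRE11 and RAD50 read -0.070 and -0.00040 in DMSO, without a call. On that scaling all 6 resection genes read below 0 with dBRD9-A, and 5 were called lower. The median of all genes was -0.32 there, and 57.4% of them were called lower.

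Among the 8 genes of the Fanconi core complex and its anchor, 1 rose and 4 fell in DMSO, and 4 rose and 3 fell with dBRD9-A, on TMM scaling. The 5 called in DMSO are 62.5% of the 8, near the 65.0% of all genes, and the 7 with dBRD9-A stand beside 63.3%. Spike-in scaling gave 3 higher and 1 lower in DMSO, and 0 higher and 7 lower with dBRD9-A. Over all genes it gave 43.4% higher and 16.4% lower in DMSO, and 13.5% and 57.4% with dBRD9-A. FANCL, the ubiquitin ligase subunit, went from 36.9 ± 1.58 to 26.6 ± 0.969 CPM in DMSO (SD, n = 3), a fall of 0.47 on the log2 scale (adjusted p 1.56e-07), and fell by 0.47 with dBRD9-A. FANCB, which forms a subcomplex with FANCL, rose from 11.4 ± 0.534 to 14.6 ± 0.588 CPM, a log2 change of 0.35 (adjusted p 1.99e-05), and by 0.21 with dBRD9-A, where its spike-in value was -0.12. FANCC, FANCF and FANCE form the arm that recruits the substrate. FANCC changed by -0.26 (adjusted p 2.48e-05) and FANCF by -0.29 (adjusted p 3.97e-05) in DMSO, with spike-in values of -0.092 and -0.11 and no call there. FANCE, at -0.11 (adjusted p 0.0304), lost its call in DESeq2 (adjusted p 0.0667) and without replicate 2 or 3 of GFP cells in DMSO or replicate 2 of SMARCB1 cells in DMSO (adjusted p 0.0928 to 0.13). FANCA, FANCG and FANCM were not called in DMSO and rose by 0.14, 0.10 and 0.12 with dBRD9-A (adjusted p 0.0176, 0.0138 and 0.023), where spike-in values were -0.19, -0.22 and -0.21. Each of these calls was lost on leaving out 1 of 2 or 3 libraries: replicate 3 of GFP cells or replicate 2 of SMARCB1 cells with dBRD9-A for FANCA (adjusted p 0.0682 and 0.101), replicate 3 of GFP cells or replicates 1 or 3 of SMARCB1 cells with dBRD9-A for FANCG (0.05 to 0.0588), and replicate 2 of GFP cells or replicate 3 of SMARCB1 cells with dBRD9-A for FANCM (0.121 and 0.157). FANCF with dBRD9-A (log2 -0.14, adjusted p 0.0161) lost its call without replicate 1 of GFP cells or replicate 2 of SMARCB1 cells with dBRD9-A (0.082 and 0.0533). FANCG was not called there by DESeq2 (adjusted p 0.0507) or with no filter on low counts (0.0584).

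FANCD2, which receives the ubiquitin, had 109.6, 113 and 109.8 CPM in GFP cells in DMSO and 110.5, 110.2 and 110.1 CPM in SMARCB1 cells. The SMARCB1 libraries lie inside the GFP range, and the log2 change was -0.0061 (adjusted p 0.886), with an interval of -0.076 to 0.063. With dBRD9-A its libraries read 104, 110.2 and 106 CPM in GFP and 116, 106 and 115 in SMARCB1 cells, a log2 change of 0.073 (adjusted p 0.0659). That value passed the threshold without replicate 2 of GFP cells or replicate 2 of SMARCB1 cells with dBRD9-A (adjusted p 0.0338 and 0.00448). FANCI, its partner, was lower in SMARCB1 cells in DMSO at -0.14 (adjusted p 0.000343), where spike-in scaling gave 0.031. With dBRD9-A it was at -0.058 (adjusted p 0.0843), which passed without replicate 3 of GFP cells in DMSO or replicate 3 of SMARCB1 cells with dBRD9-A (adjusted p 0.0456 and 0.0442). FANCI shares exons on the opposite strand with POLG, and whether strand was used in counting is not given in the sources used here.

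Downstream of the FANCD2 and FANCI pair, BRIP1 and SLX4 were higher in both comparisons on TMM scaling, and BRIP1 on spike-in scaling too. BRIP1, the helicase that binds BRCA1 and is also called FANCJ, had 33.3, 35.4 and 34.3 CPM in GFP cells and 47.5, 53.5 and 51.7 CPM in SMARCB1 cells in DMSO. No libraries overlap, and the log2 change was 0.57 (SE 0.043, adjusted p 2.62e-09), a 1.48-fold rise. With dBRD9-A the step was from 34.9, 36.1 and 37.6 to 53.9, 52.2 and 53.4 CPM (log2 0.55, SE 0.044, adjusted p 5.03e-09). SLX4, the scaffold for crosslink-cutting nucleases, had 11.8, 14.1 and 12.1 CPM against 17.7, 16.7 and 18.0 CPM in DMSO, again without overlap (log2 0.48, SE 0.066, adjusted p 5.59e-06). With dBRD9-A SLX4 had 15.2, 13.9 and 14.3 CPM in GFP and 17.5, 19.1 and 17.2 CPM in SMARCB1 cells (log2 0.31, SE 0.067, adjusted p 0.000563). Spike-in values for SMARCB1 against GFP were 0.74 and 0.23 for BRIP1 and 0.64 and -0.018 for SLX4, in DMSO and with dBRD9-A.

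The checkpoint kinases were led by CHEK2, the effector downstream of ATM. It had 37.3, 35.9 and 37.8 CPM in GFP cells in DMSO and 21.8, 19.9 and 21.7 CPM in SMARCB1 cells. Every SMARCB1 library was well under every GFP library, and the log2 change was -0.81 (SE 0.047, adjusted p 5.83e-11), or 0.57 times the GFP level. With dBRD9-A the values were 41.1, 42.0 and 42.8 CPM and 22.1, 20.9 and 23.4 CPM, a change of -0.93 (SE 0.047, adjusted p 9.91e-12) and the lowest among the 34 in that comparison. Spike-in values were -0.64 and -1.25. CHEK2 shares exons with HSCB on the opposite strand. CHEK1, the effector downstream of ATR, had 73.4 ± 0.305 and 70.7 ± 0.441 CPM in DMSO (SD, n = 3), a log2 change of -0.055 (adjusted p 0.137). Its groups do not overlap, though the test was not passed. ATR fell by 0.16 in DMSO (adjusted p 3.34e-05), with a spike-in value of 0.0039, and ATM was at -0.013 (interval -0.12 to 0.093).

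Counts of a pair of genes within 1 library can be divided without any scaling between libraries, so such ratios do not depend on TMM or the spike-ins. The 14 pairs of partners were chosen after the counts had been seen and are given as a description. For 12 of the 14 the 6 GFP and the 6 SMARCB1 libraries did not overlap, and the same held for 48.6% of all pairs among the 15202 tested genes with a count in every library, so that a separated ratio is common in these data. The BARD1 to BRCA1 ratio was 0.467 to 0.545 over the 6 GFP libraries and 0.681 to 0.730 over the 6 SMARCB1 libraries. BRIP1 to BRCA1 was 0.362 to 0.445 against 0.537 to 0.597. These partners of BRCA1 were both more abundant relative to it in every SMARCB1 library. RBBP8 to BRCA1 went the other way, from 0.986 to 1.077 in GFP libraries to 0.763 to 0.858 in SMARCB1 libraries. PALB2 to BRCA2 was 0.619 to 0.718 against 0.409 to 0.502.

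Among the other pairs, RAD51B to RAD51C was 0.261 to 0.348 in GFP libraries and 0.156 to 0.182 in SMARCB1 libraries. CHEK2 to CHEK1 was 0.491 to 0.574 against 0.283 to 0.307, and FANCL to FANCB was 2.861 to 3.495 against 1.756 to 2.016. Within the first-cut nuclease, MRE11 to NBN was 0.205 to 0.222 against 0.163 to 0.194, and RAD50 to NBN was 0.404 to 0.429 against 0.353 to 0.386. FANCI to FANCD2 was 1.201 to 1.286 against 1.123 to 1.175. RAD51D to XRCC2 (0.452 to 0.531 against 0.372 to 0.427) and RAD54B to RAD54L (2.028 to 2.346 against 2.396 to 2.669) did not overlap either, while XRCC3 to RAD51C and ATM to ATR did. A ratio shows that partners changed unequally and not which of them changed, and since counts are not divided by gene length, ratios of different pairs cannot be compared with each other.

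**Figure D3:**
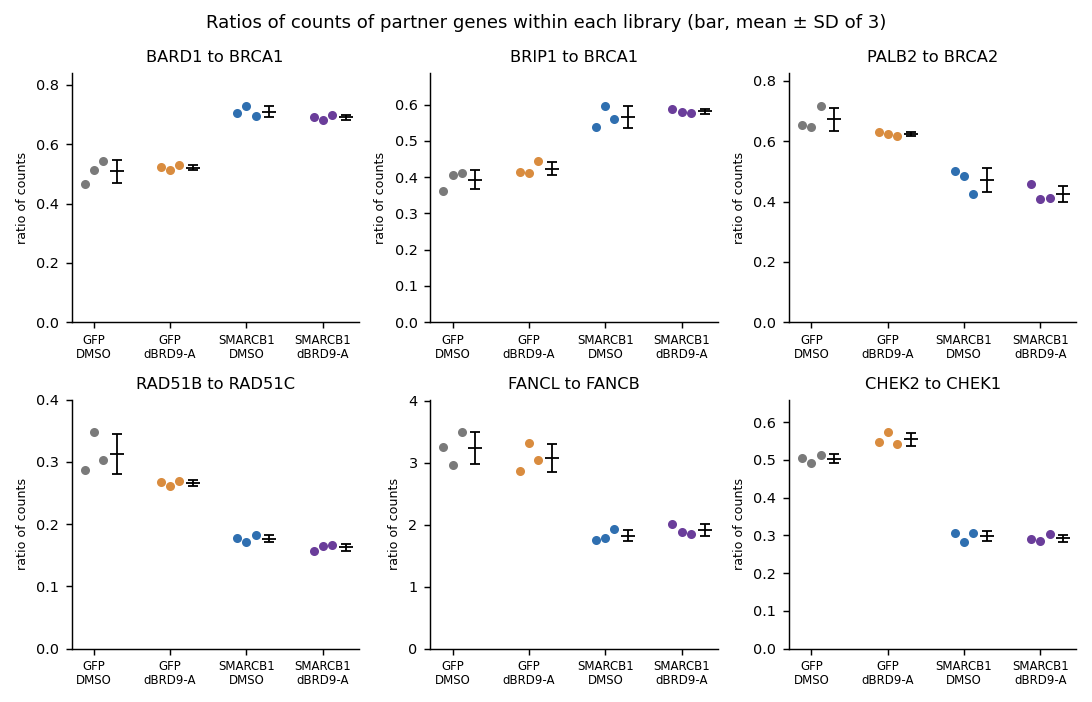
Ratio of counts of 6 pairs of partner genes (vertical axis, no unit) in each of the 12 libraries, by group, with mean and SD beside the points. For each pair the 6 SMARCB1 libraries lie on 1 side of the 6 GFP libraries, above for BARD1 and BRIP1 to BRCA1 and below for the other 4 pairs.

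Fewer of these genes were called for dBRD9-A. In GFP cells dBRD9-A changed 9 of the 34, with 4 higher and 5 lower, beside 15.9% of all genes (7.43% higher, 8.47% lower). The median of the 34 was -0.019 on the log2 scale. XRCC3, the paralog that works with RAD51C, had 30.3, 30.7 and 31.6 CPM in DMSO and 36.9, 38.1 and 37.4 CPM with dBRD9-A, without overlap and with a log2 change of 0.28 (SE 0.050, adjusted p 0.000824). FANCC, of the substrate arm, went from 31.2, 30.8 and 29.5 to 35.2, 34.2 and 34.5 CPM (log2 0.18, SE 0.041, adjusted p 0.00467). CHEK2 went from 37.3, 35.9 and 37.8 to 41.1, 42.0 and 42.8 CPM (log2 0.18, SE 0.044, adjusted p 0.00941). These 3 genes were each lower with SMARCB1 and higher with dBRD9-A against the same GFP libraries in DMSO, which both comparisons share. XRCC3 shares exons with KLC1 on the opposite strand. NBN rose by 0.079 (adjusted p 0.0316), a call that was lost on leaving out any 1 of the 6 GFP libraries (adjusted p 0.0562 to 0.102) and with no filter on low counts (0.237).

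The genes that fell with dBRD9-A in GFP cells did so on TMM scaling and stood above 0 on spike-in scaling. RAD51B went from 11.7, 12.9 and 11.5 to 9.89, 9.74 and 9.69 CPM, all lower (log2 -0.29, SE 0.061, adjusted p 0.00299). It had the lowest log2 change of the 34 in SMARCB1 cells too, though not called there (log2 -0.15, adjusted p 0.389). FANCF, of the substrate arm as well, went from 25.2, 23.8 and 24.7 to 23.0, 22.1 and 21.0 CPM (log2 -0.16, SE 0.047, adjusted p 0.0336). Its call was lost in DESeq2 (adjusted p 0.0643) and without replicates 1 or 3 in DMSO or replicates 2 or 3 with dBRD9-A (adjusted p 0.0837 to 0.154). FANCG, which pairs with FANCA, went from 47.1, 44.5 and 45.9 to 42.2, 41.7 and 41.1 CPM (log2 -0.14, SE 0.033, adjusted p 0.00744), with a call lost without replicate 1 in DMSO (adjusted p 0.0511). ATR fell by 0.14 (adjusted p 0.0017). FANCI fell by 0.091 (adjusted p 0.0356), a call lost without any 1 of 5 libraries, namely replicates 1 or 2 in DMSO or any replicate with dBRD9-A (adjusted p 0.0605 to 0.131). BRCA1 read 84.1, 87.8 and 84.4 CPM with dBRD9-A (log2 -0.035, adjusted p 0.582), BRCA2 60.3, 59.4 and 58.1 CPM (log2 0.043, adjusted p 0.679) and FANCD2 104, 110.2 and 106 CPM (log2 -0.053, adjusted p 0.325), and none of these was called. SLX4, at 0.20 (adjusted p 0.0543), lay just over the threshold and passed it without replicate 2 in DMSO or replicate 2 of SMARCB1 cells with dBRD9-A (adjusted p 0.00856 and 0.0363), with no filter on low counts (0.0394) and with only the 2 groups fitted (0.0407).

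On spike-in scaling the same libraries read otherwise: all 34 values were above 0 and 33 were called as higher, beside 71.8% of all genes called (70.4% higher, 1.44% lower). XRCC3, FANCC and CHEK2 then stood at 0.64, 0.54 and 0.54, above the median of 0.36 over all genes. RAD51B stood at 0.062, FANCF at 0.20 and FANCG at 0.22, below that median, and RAD51B was the only member without a call. XRCC3 was the highest and RAD51B the lowest of the 34 on both scalings.

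In SMARCB1 cells dBRD9-A changed 1 of the 34 genes, RBBP8, beside 1.93% of all genes (0.679% higher, 1.25% lower). RBBP8 had 69.9, 71.7 and 70.5 CPM in DMSO and 77.9, 77.1 and 78.4 CPM with dBRD9-A, all higher (log2 0.14, SE 0.027, adjusted p 0.0103). The call was lost when only these 2 groups were fitted (adjusted p 0.0666) and without replicate 3 of either group (adjusted p 0.056 and 0.0698), and the spike-in value was 0.0020. On spike-in scaling edgeR called 0 of the 34 there, with 11 at an unadjusted p under 0.05, beside 5.54% of all genes called (0.248% higher, 5.30% lower), and DESeq2 on its own size factors called 1. The other 33 genes lay between -0.15 (RAD51B) and 0.13 (BRCA2, adjusted p 0.322). BRCA1 changed by 0.018 (adjusted p 0.903) and FANCD2 by 0.026 (adjusted p 0.826), neither of which was called. The dBRD9-A comparisons in GFP and SMARCB1 cells share no library, and as a description the log2 changes of the 34 genes had r = 0.597 and rho = 0.56, beside r = 0.184 over all genes.

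**Figure D4:**
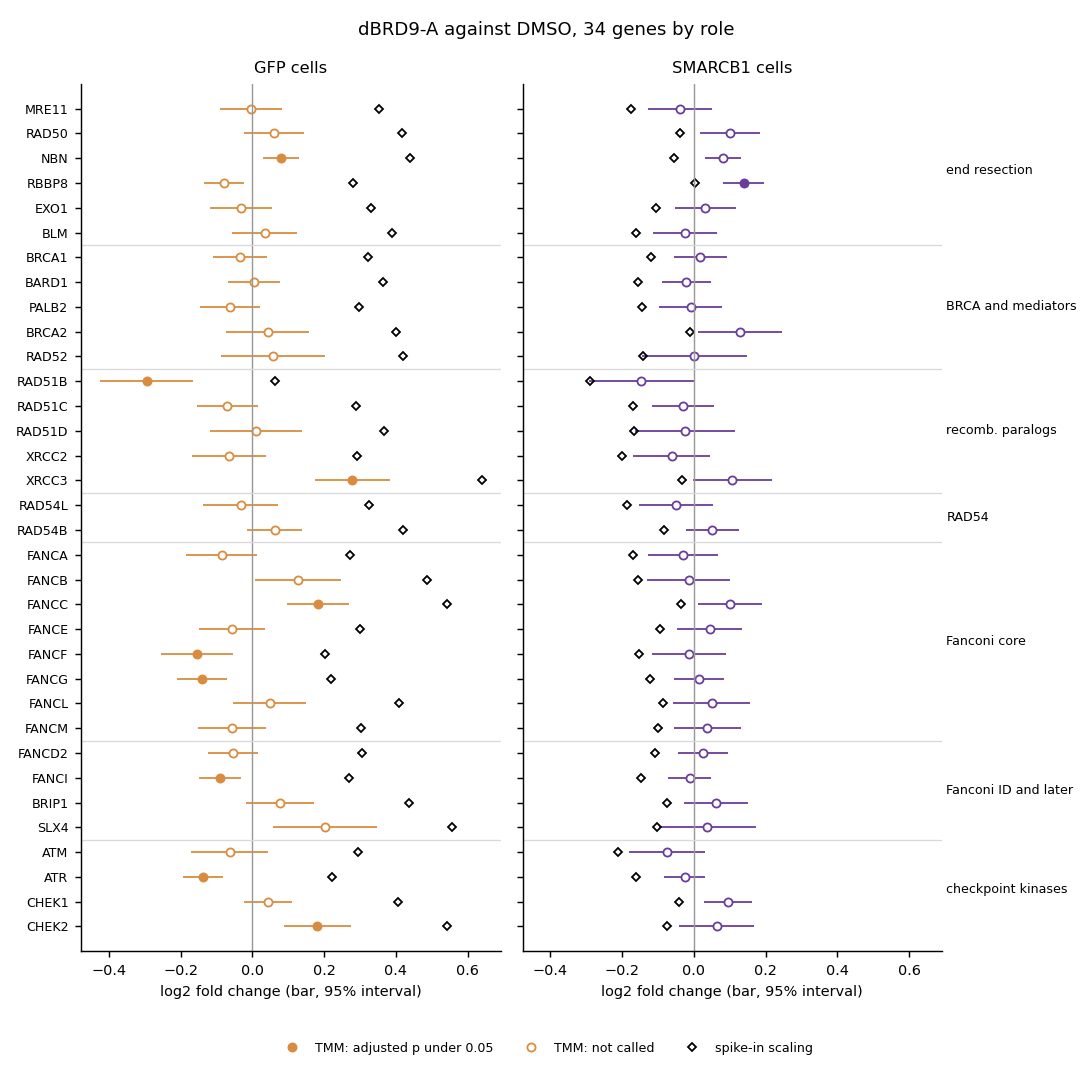
Log2 fold change of dBRD9-A against DMSO for the 34 genes by role, in GFP cells (left) and SMARCB1 cells (right). Circles with 95% intervals are TMM values, filled where the adjusted p was under 0.05, and diamonds are spike-in values. In GFP cells 9 circles are filled and all 34 diamonds lie above 0, and in SMARCB1 cells only RBBP8 is filled.

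Whether the response to dBRD9-A differed between the cell states was tested directly, as the change in SMARCB1 cells minus that in GFP cells. On TMM scaling RBBP8 was the only one of the 34 genes called, beside 3.80% of all genes (2.15% higher, 1.65% lower). In GFP cells it went from 93.5, 92.0 and 89.6 CPM in DMSO to 87.6, 86.6 and 86.2 CPM with dBRD9-A, all lower though not called (log2 -0.079, adjusted p 0.0552). That change in GFP cells passed with a minimum count of 50 (adjusted p 0.0346) and without replicate 2 of SMARCB1 cells with dBRD9-A (0.0499). In SMARCB1 cells it went up, as given above, and the difference was 0.22 (SE 0.038, adjusted p 0.00249). The difference was called when any 1 of the 12 libraries was left out (0.20 to 0.23) and by DESeq2 (adjusted p 0.000875). The SMARCB1 libraries with dBRD9-A are those in which SMARCB1 RNA was lower than in DMSO (log2 -0.52), and the part of that in the RBBP8 difference was not tested. With dBRD9-A the SMARCB1 libraries still lay below the GFP libraries, at -0.16 (adjusted p 6.47e-05). On spike-in scaling the difference was -0.28, above the median of -0.49 over all genes but below 0. All 34 genes, RBBP8 among them (adjusted p 0.0076), were called as lower on that scaling, beside 71.6% of all genes called (0.419% higher, 71.1% lower). The next lowest adjusted p values belonged to FANCG, at 0.15 (adjusted p 0.0863), and ATR, at 0.11 (adjusted p 0.134). XRCC3, at -0.17 (adjusted p 0.245), passed the threshold without replicate 2 of SMARCB1 cells with dBRD9-A (-0.25, adjusted p 0.016). BRCA1, BRCA2 and FANCD2 had differences of 0.052, 0.086 and 0.079, none called.

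A wider list of 64 other genes of recombination, crosslink repair and damage signalling moved in both directions too on TMM scaling. With SMARCB1 in DMSO, 23 rose and 16 fell on TMM scaling, with a median of -0.0081. The 60.9% called lie near the 65.0% of all genes (33.5% upward, 31.6% downward). On spike-in scaling 30 rose and 4 fell, 53.1% beside 59.8% of all genes (43.4% and 16.4%). The largest rises were in the damage mediator MDC1 at 0.64 (SE 0.069, adjusted p 2.53e-07), the histone H2AX at 0.47 (SE 0.085, adjusted p 9.43e-05) and the checkpoint adaptor CLSPN at 0.41 (SE 0.055, adjusted p 3.47e-06). The largest falls were in the helicase MCM9 at -0.86 (SE 0.049, adjusted p 4.5e-11), the nuclease subunit EME2 at -0.76 (SE 0.12, adjusted p 3.03e-05) and the core complex partner FAAP24 at -0.42 (SE 0.092, adjusted p 0.000675). With dBRD9-A 22 rose and 15 fell, 57.8% beside 63.3% of all genes, and on spike-in scaling 0 rose and 44 fell, beside 13.5% and 57.4%. On TMM scaling the largest rises there included MDC1 at 0.40, H2AX at 0.47 and SWI5, a recombination accessory factor, at 0.38. EME2 at -0.77, MCM9 at -0.73 and HUS1, of the checkpoint clamp, at -0.65 fell the most there.

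In response to dBRD9-A in GFP cells, 4 of the 64 rose and 3 fell on TMM scaling, 10.9% beside 15.9% of all genes. On spike-in scaling 61 rose and 0 fell, beside 70.4% and 1.44%. HUS1 was at 28.1 ± 1.297 CPM in DMSO and rose to 38.1 ± 0.0880 CPM (SD, n = 3), or by 0.44 (adjusted p 7.86e-07) on the log2 scale. FAAP20, of the core complex, rose by 0.27 and SHLD2, of the shieldin complex that limits resection, by 0.19. The FAAP20 call (adjusted p 0.0351) was lost without replicates 1 or 3 in DMSO or any replicate with dBRD9-A (adjusted p 0.0581 to 0.13). RMI2, of the complex with BLM, fell from 32.9 ± 0.478 to 25.9 ± 0.693 CPM (log2 -0.34, adjusted p 5.47e-05), and RAD51AP1 and RFWD3 fell by 0.12 and 0.10. RAD51AP1 (adjusted p 0.0319) lost its call in DESeq2 (0.0626), with only the 2 groups fitted (0.0524) and without replicate 2 in DMSO or any replicate with dBRD9-A (0.0791 to 0.14), and RFWD3 lost its call without replicate 1 in DMSO (0.0527). On spike-in scaling RMI2, RAD51AP1 and RFWD3 stood at 0.017, 0.24 and 0.26. SHLD2 was the only one of the 64 called in SMARCB1 cells on TMM scaling (log2 0.16, adjusted p 0.00973, spike-in 0.018). That is 1.6% of the 64, beside 1.93% of all genes. SHLD2 lost that call with only the 2 groups fitted (0.0563) and without replicate 3 of either group (0.0635 and 0.0742). On TMM scaling the response differed between the cell states for HUS1 and RMI2, 3.1% of the 64 beside 3.80% of all genes. HUS1 was at log2 -0.36 (adjusted p 0.00183, spike-in -0.85) and RMI2 at 0.32 (adjusted p 0.00838, spike-in -0.17). Spike-in scaling called 0 of the 64 higher and 61 lower for this difference, beside 0.419% and 71.1% of all genes.

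Cell cycle genes moved beside these results. Of 52 genes of the G2/M phase, 43 were higher and 2 lower with SMARCB1 in DMSO on TMM scaling, with a median of 0.27, and 41 were higher and 3 lower with dBRD9-A, with a median of 0.21. Over all genes 33.5% were higher and 31.6% lower in DMSO, and 33.0% and 30.4% with dBRD9-A. Of 36 S phase genes, 12 were higher and 8 lower in DMSO (median 0.028) and 16 higher and 6 lower with dBRD9-A. A list of 21 genes held the E2F and RB families with TFDP and LIN genes, MYBL2, FOXM1, CDKN1A and CDKN2A. Of these, 8 were higher and 6 lower in DMSO. On spike-in scaling the G2/M median was 0.44 in DMSO, with 49 genes higher and 2 lower, and -0.12 with dBRD9-A, with 4 higher and 22 lower. S phase genes read 24 higher and 0 lower in DMSO, and 1 higher and 29 lower with dBRD9-A, on that scaling. The list of 21 gave 11 higher and 3 lower in DMSO. Shares of all genes there were 43.4% higher and 16.4% lower in DMSO, and 13.5% and 57.4% with dBRD9-A. What part the cell cycle has in the changes of the 34 genes was not tested. Other repair pathways gave counts in both directions for SMARCB1 in DMSO on TMM scaling, where 33.5% of all genes rose and 31.6% fell. Of 13 end joining genes 2 rose and 5 fell, and of 10 mismatch repair genes 2 rose and 3 fell. On spike-in scaling 4 end joining genes rose and 1 fell in DMSO, beside 43.4% and 16.4% of all genes. Mismatch repair genes went 1 way there, with 4 higher and 0 lower. With dBRD9-A that scaling gave 1 end joining gene higher and 11 lower, beside 13.5% and 57.4%. For mismatch repair it gave 0 higher and 9 lower.

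Set against the promoter stretches shown at the start, the genes with E2F-type letters had no common direction on TMM scaling. In SMARCB1 cells in DMSO, EXO1 rose by 0.14, XRCC2 fell by 0.22 and FANCC fell by 0.26, while FANCA (0.081) and FANCD2 (-0.0061) were not called. On spike-in scaling these 5 genes read 0.31, -0.058, -0.092, 0.25 and 0.16. EXO1, FANCA and FANCD2 were called higher there, and XRCC2 and FANCC were not called. Of all genes, 43.4% were called higher and 16.4% lower on that scaling. By the calls on TMM scaling, CCAAT letters were in 2 of the 6 windows of genes higher in both SMARCB1 comparisons. They were in 5 of the 12 of genes lower in both, and in 3 of the 7 of genes called in neither. BRIP1 and CHEK2, with 3 matches each, had log2 changes of 0.57 and -0.81.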

How the data were processed

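Per the labels, RNA for the 12 G401 libraries was extracted on Qiagen RNeasy Plus columns and sequenced from TruSeq Stranded mRNA libraries. The authors deposited 3 tables of expected counts per gene, and the 6 columns that occur in more than 1 table were identical there. The submitters' processing notes name STAR, RSEM 1.3.1, DESeq2 and the build GRCh37 (hg19), without their roles. The annotation and the use of strand are not given in the sources used here. The deposited expected counts were rounded to whole numbers, and 40 spike-in identifiers (0.9634% to 1.302% of counts) entered neither library sizes nor tests. Symbols were matched for 51996 of 57820 identifiers. In GENCODE 29, 21 of the 34 genes overlap an exon of another gene, 17 of them on the opposite strand.

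Genes passing filterByExpr with a minimum count of 10 (15750) were tested in edgeR 4.0.16 (R 4.3.3) with TMM scaling and a quasi-likelihood fit of all 12 libraries, 1 coefficient per group. P-values were adjusted by Benjamini-Hochberg over all genes tested, a gene was called at an adjusted p under 0.05, and adjusted p values in the text come from this test unless another is named. CPM are TMM-scaled, except the sums over cell type markers, which are per megacount on genes without that scaling. Intervals are 95%. The fit was tested on simulated counts. Alternatives were DESeq2 1.42.0, its size factors in edgeR, spike-in scaling, no filter, a minimum count of 50, unrounded counts, the compared groups only, a replicate block and leaving out each library. Gene lists and the 34 members were chosen with earlier results of these data known. Per comparison, every library's value is given for the 3 largest rises and falls among members that were called, averaged at least 50 counts and did not overlap between groups, and for BRCA1, BRCA2 and FANCD2. Up to 3 rises and falls of the wider list follow the same rule. Depth was 34.97 to 58.54 megacounts per library, and a count of 0 allows up to 3 counts. Such limits cover the error of counting alone, and PCR copies of a molecule may be counted more than once.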

Additional observations from a re-analysis of the deposited data

Results flagged for a closer look

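On TMM scaling RBBP8, which encodes the resection factor CtIP, was the only one of the 34 genes whose response to dBRD9-A differed between the cell states by the test of that difference. The same test called 3.80% of all genes, so 1 call among 34 is near the general share. The response in SMARCB1 cells minus that in GFP cells was 0.22 on the log2 scale (SE 0.038, edgeR adjusted p 0.00249), made up of 0.14 in SMARCB1 cells and -0.079 in GFP cells. All 3 libraries with dBRD9-A lay above the 3 in DMSO in SMARCB1 cells and below them in GFP cells. On spike-in scaling the difference was -0.28, beside a median of -0.49 over all genes. All 34 genes were called as lower there, RBBP8 with an adjusted p of 0.0076, beside 71.1% of all genes called lower. Without replicate 2 of SMARCB1 cells with dBRD9-A, XRCC3 was called on TMM scaling too (log2 -0.25, adjusted p 0.016). RNA of the induced SMARCB1 was itself lower with dBRD9-A in SMARCB1 cells (log2 -0.52, adjusted p 4.95e-08), and its part in the RBBP8 difference was not tested.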

How the results depend on the processing

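Of the alternatives run, only the spike-in scaling turned the sign of a member's value that was called before or after. It turned 5 values for SMARCB1 in DMSO: RAD51C 0.16, FANCE 0.059, FANCD2 0.16, FANCI 0.031 and ATR 0.0039. For SMARCB1 with dBRD9-A it turned 14: NBN -0.30, EXO1 -0.13, BLM -0.17, BRCA1 -0.23, BRCA2 -0.25, RAD51C -0.30, RAD54L -0.30, RAD54B -0.057, FANCA -0.19, FANCB -0.12, FANCG -0.22, FANCM -0.21, FANCD2 -0.25 and SLX4 -0.018. For dBRD9-A in GFP cells it turned 18: MRE11 0.35, RBBP8 0.28, EXO1 0.33, BRCA1 0.32, PALB2 0.30, RAD51B 0.062, RAD51C 0.29, XRCC2 0.29, RAD54L 0.33, FANCA 0.27, FANCE 0.30, FANCF 0.20, FANCG 0.22, FANCM 0.30, FANCD2 0.30, FANCI 0.27, ATM 0.29 and ATR 0.22. For the difference between the dBRD9-A responses it turned 20: RAD50 -0.46, NBN -0.49, RBBP8 -0.28, EXO1 -0.44, BRCA1 -0.44, PALB2 -0.44, BRCA2 -0.41, RAD51B -0.35, RAD51C -0.46, XRCC2 -0.49, FANCA -0.44, FANCE -0.39, FANCF -0.36, FANCG -0.34, FANCL -0.50, FANCM -0.40, FANCD2 -0.41, FANCI -0.42, ATR -0.38 and CHEK1 -0.45. The number of members called for dBRD9-A went from 9 to 33 in GFP cells and from 1 to 0 in SMARCB1 cells, where edgeR gave 11 members an unadjusted p under 0.05. The number called for the difference went from 1 to 34.

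Apart from the spike-ins, the count of members called for SMARCB1 stayed within 1.5 times its value of 22 in DMSO and 23 with dBRD9-A under DESeq2, other size factors, no filter, a stricter filter, unrounded counts and the fit of the compared groups only. For dBRD9-A in SMARCB1 cells the count of 1 became 2 with no filter (BRCA2 was added, adjusted p 0.047) and 0 with only the compared groups, where RBBP8 was at an adjusted p of 0.0666 and edgeR gave 4 members an unadjusted p under 0.05, and DESeq2 on all groups called 1. Leaving out 1 library at a time gave 21 to 22 calls for SMARCB1 in DMSO and 20 to 24 with dBRD9-A. For dBRD9-A in GFP cells it gave 5 to 11 (5 without replicate 1 in DMSO). Over all genes, 811 were higher and 967 lower of 16016 without that library, against 1170 and 1334 of 15750 with every library. For dBRD9-A in SMARCB1 cells it gave 0 to 1 (0 without replicate 3 of either group). All genes there read 44 higher and 125 lower without replicate 3 in DMSO, and 46 and 150 without replicate 3 with dBRD9-A, against 107 and 197. For the difference it gave 1 to 2 (2 without replicate 2 of SMARCB1 cells with dBRD9-A). All genes then read 419 higher and 443 lower, against 338 and 260. Same-numbered libraries of different groups did not deviate together (18 correlations of -0.056 to 0.061, and the own number was the best match in 8 of 36 comparisons), so the numbers were not taken to pair samples. A fit with the replicate number as a block called 22, 23, 7, 1 and 1 members, in the order of the comparisons above. It lost NBN and FANCI for dBRD9-A in GFP cells (adjusted p 0.0536 and 0.0576). Of all 15750 genes, the block called 1035 higher and 1198 lower in that comparison. Each member had at least 237 counts in every library, and with 3 libraries a group small changes below the called sizes could not be told from the spread between libraries. The cause of the changes in calls was not tested.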
